A study of Mus musculus with 3 samples.

Results

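Notch signaling passes between cells that touch. Ligands of the Jagged and Delta families on one cell bind Notch receptors on its neighbour, the receptor is cut, and its intracellular part enters the nucleus, where it joins the DNA-binding protein RBPJ and turns on target genes. The best known of these targets encode the Hes and Hey repressors, which carry a basic helix-loop-helix domain, and in the limb the pathway is known for its parts in digit separation, cartilage and blood vessels.

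The Notch genes examined here were the ligands Jag1, Jag2 and Dll1, the receptors Notch1 and Notch2, the glycosyltransferase gene Lfng and the targets Hes1, Hey1, Hey2 and Heyl. The regions described are all listed GLI3 peaks whose summit lay within 100 kb of an annotated transcription start site (TSS) of one of these 10 genes. There were 46 such regions among 17149 listed, and none lay within that distance of more than 1 of the genes. GLI3 acts in the nucleus at the end of the Hedgehog (HH) pathway and is known in the limb bud mainly as a repressor where HH signal is absent. The peaks came from chromatin immunoprecipitation and sequencing (ChIP-seq) with a FLAG antibody on forelimb buds of E10.5 mouse embryos of mixed strain, staged at 32 to 35 somites. All 3 libraries (2 ChIP replicates and 1 input) came from this stage, with 2 litters per reaction. The genotype label reads wild type, whereas the methods of the study describe a Gli3 allele that adds a FLAG tag to the N-terminus of the endogenous protein. Limb buds were pooled whole, so mesenchyme and ectoderm were measured together, and a site bound in few cells cannot be told apart from a site bound weakly in many.

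The list was treated as 1 call over both replicates against the input. It holds no value per replicate, so no value below carries a replicate error, no difference was set against the spread between replicates, and every comparison is a description without a test. Each peak has a false discovery rate (FDR), and those under 0.05 are called GLI3 binding regions below, which 42.5% of all listed peaks were. Of the 46 regions near Notch genes, 29 were GLI3 binding regions. The strength of a peak is given as its maximum log2 fold enrichment of ChIP over input, and its rank runs from 1 for the strongest in the list.

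Letters that resemble the binding sites of GLI proteins and of RBPJ were looked for first, since each pathway has its own DNA-binding protein. A GLI motif was a match to GACCACCCA with at most 1 mismatch, on either strand, in the window of 250 bp to each side of the summit. It was found in 6 of the 29 binding regions (20.7%, 95% Wilson interval 9.85 to 38.4), compared with 20.8% of all 7282 binding regions in the list. The exact consensus was in 0 of 29, which allows a share of up to 10.3% (3 counts of 29, a limit apart from the Wilson interval), and in 2.84% of all binding regions. Intervals and limits cover counting error over regions only. The 7 matches are shown because they are the candidate GLI sites nearest to these summits. Each is read 5′ to 3′ on its own strand in the GRCm38.p6 genome (mm10) with the 9 letters of the match in capitals, and the name gives the gene and the rank of the peak.
Jag1 3784 (chr2:137117652-137117660, minus strand): cggtttccacCACCACCCAggagaagcca
Jag2 2080 (chr12:112941757-112941765, minus strand): ctccatttctGACCGCCCAtcgatacttt
Jag2 4847 (chr12:112927795-112927803, plus strand): ggcaaaccctGCCCACCCAtgcctgaccc
Jag2 4847 (chr12:112928218-112928226, plus strand): tgcctgacctGACCACCCCtaagcagaca
Notch2 1080 (chr3:98101501-98101509, minus strand): tgcacaaatgGACCACACAtgcggttcag
Hes1 301 (chr16:30066793-30066801, plus strand): gcgctgcgggGACCTCCCAgggcgggagg
Hey1 245 (chr3:8708991-8708999, minus strand): cctctcattaGACCACACAaattgctgaa

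The strongest regions of Notch2 and Hey1 shared the same mismatch. Substitutions are written with the base of the consensus first and positions counted from 1 at its 5′ end. Both of these regions held C7A, 137 bp and 82 bp from their summits. The Jag1 match carried G1C and lay 14 bp from the summit, the closest of the 7. The Hes1 match carried A5T and lay 50 bp away. At Jag2 the matches carried A5G (246 bp), A2C (223 bp, outside the called peak) and A9C (200 bp), all far from the summits.

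The core RBPJ motif was TGGGAA on either strand, looked for in the same windows around the summits. It was found at 11 of 29 binding regions (37.9%, 22.7 to 56.0), compared with 36.0% of all binding regions. A longer form with 8 letters, CGTGGGAA or TGTGGGAA, was in 6 of 29 (20.7%, 9.85 to 38.4) against 4.39% of all, and in 10 of the 46 listed regions against 4.48% of all listed peaks. Every 8-letter match also holds the core. By role, it was in 5 of 15 binding regions near the targets, 1 of 6 near the receptors and 0 of 8 near the ligands. Hes and Hey genes are known to be bound by RBPJ near their starts, and the motif was not counted at these genes outside the GLI3 peaks. The 6 matches in the windows of binding regions are shown with the 8 letters in capitals and the coordinates of the 6-letter core.
Notch1 5763 (chr2:26502397-26502402, plus strand): ccccggatCGTGGGAAaaagcgacag
Hes1 445 (chr16:30009065-30009070, minus strand): ccccagacTGTGGGAAaacgctgctc
Hes1 963 (chr16:30065260-30065265, plus strand): aaagttacTGTGGGAAagaaagtttg
Hey1 2982 (chr3:8717581-8717586, minus strand): atcagagcTGTGGGAAacagctcctc
Hey1 3800 (chr3:8667426-8667431, plus strand): ccgcgggcCGTGGGAAagtgccggcg
Heyl 5831 (chr4:123239642-123239647, plus strand): ctccggccCGTGGGAAgcggcggcat

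The match in the Hey1 region of rank 2982 lay outside the called peak, 68 bp from its summit, and the other 5 lay inside. The 3 regions with CGTGGGAA were rich in CpG, with a GC content of 60.5% (Notch1), 80.2% (Hey1) and 70.7% (Heyl). Whether base composition has a part in the longer match was not tested. At the Hes1 promoter the 8-letter match was 1 of a pair. The stretch chr16:30065245-30065294 is shown because it holds 2 copies of the core in the same direction, 8 bp apart, 61 to 80 bp before the Hes1 TSS and inside the GLI3 peak of rank 963, with the cores in capitals.
Hes1 promoter: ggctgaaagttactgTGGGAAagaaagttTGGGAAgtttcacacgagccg

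**Figure D1:**
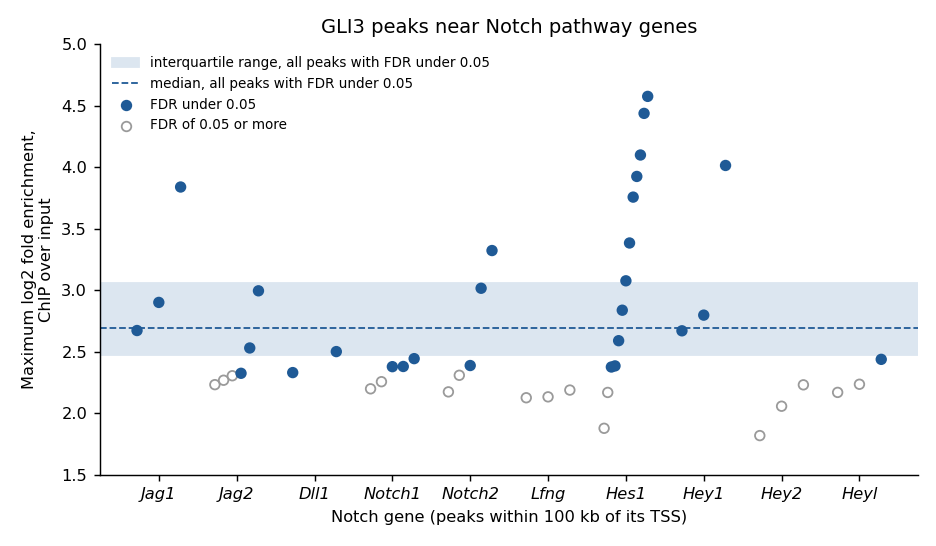
Maximum log2 fold enrichment of ChIP over input (y axis) of the 46 listed GLI3 peaks within 100 kb of each of the 10 Notch genes (x axis). Filled points are the 29 peaks with an FDR under 0.05 and open points the others, the dashed line is the median of all peaks under that FDR (2.69) and the band their interquartile range (2.47 to 3.06), and points within a gene are spread sideways by value alone. Hes1 holds the most points and the highest (4.57), whereas Lfng and Hey2 hold open points only.

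GLI3 binding differed widely among the 10 genes. At least 1 binding region lay within 100 kb of 8 of them, all but Lfng and Hey2, compared with 52.2% of 21938 protein-coding genes. All 10 had a listed peak of any FDR within that distance, compared with 70.7% of genes. A binding region touched the gene's own promoter window, from 2 kb before to 1 kb after a TSS, at 4 genes (Jag1, Notch2, Hes1 and Hey1), compared with 17.2% of all protein-coding genes. The 29 regions had a median log2 fold enrichment of 2.80 (interquartile range 2.44 to 3.38), against 2.69 over all binding regions. Without Hes1 the median was 2.60 over 18 regions, so the higher median rested on that gene. The weakest of the 29 was a Jag2 region at 2.32, and the strongest listed peak that missed the FDR threshold was a Notch2 peak at 2.31.

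The strongest binding was found at 2 of the 4 targets, Hes1 and Hey1. Hes1, a repressor that keeps progenitor cells from differentiating, had 11 binding regions within 100 kb (13 listed), and the nearest protein-coding TSS was its own for all 11. As many or more binding regions were found at 71 of the 21938 protein-coding genes (0.324%), where the median gene had 1 and the most had 26. The Hes1 regions ran from log2 fold enrichments of 2.38 to 4.57 (median 3.38), and 9 of them had an FDR under 0.01.

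Binding at Hes1 was concentrated around the gene. Of the 11 regions, 7 lay within 10 kb of the TSS, a number reached by 13 protein-coding genes (0.0593%). These 7 covered 6650 of 8300 bp (80.1%), with gaps of 50 to 700 bp between neighbours. They are therefore not 7 separate loci, and the call of 7 depends on where the peak caller split the signal. Enrichment was highest past the end of the gene. The region of rank 71 (chr16:30069300-30071049) peaked 5037 bp downstream of the TSS at a log2 value of 4.57, which is 23.8-fold. Its neighbour of rank 94 (chr16:30067900-30068999) had its summit at 3257 bp and a value of 4.44. Both reached the ceiling of 100 that the list sets on the −log10 Poisson p-value.

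The promoter side of Hes1 was lower. The region of rank 194 (chr16:30063100-30064449) peaked 1078 bp before the TSS with 4.10. The annotated start of the whole gene (chr16:30064384) lay inside this region, upstream of the TSS used for distances. The region of rank 963 (chr16:30064600-30065399), which holds the paired RBPJ motifs, peaked 183 bp before the TSS with 3.38. Inside the gene, rank 301 (chr16:30066100-30067199) lay over introns and exons with its summit in an intron, at 3.92, and held the only GLI motif among the 11 windows. The remaining regions of the 7 were rank 2764 in the last coding exon (2.84) and rank 6439 at 5977 bp (2.38). A listed peak 657 bp past the TSS reached 1.88 with an FDR of 0.807697 and was not called.

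The other 4 sites lay farther from Hes1. Upstream, rank 445 (chr16:30008400-30009349) reached 3.76 at 56323 bp before the TSS, overlapping the start of the noncoding RNA gene 4632428C04Rik, in CpG-rich sequence with a GC content of 73.3% and an 8-letter RBPJ match 50 bp from the summit. Rank 1727 (chr16:30020100-30020449) reached 3.08 in an exon of the same noncoding gene, 44988 bp before the Hes1 TSS. The weakest were rank 4394, 31322 bp downstream with 2.59, and rank 6537, 68903 bp upstream with 2.38. Which gene a distant region acts on cannot be read from binding, and a TSS of 4632428C04Rik was nearer than that of Hes1 for the upstream sites.

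**Figure D2:**
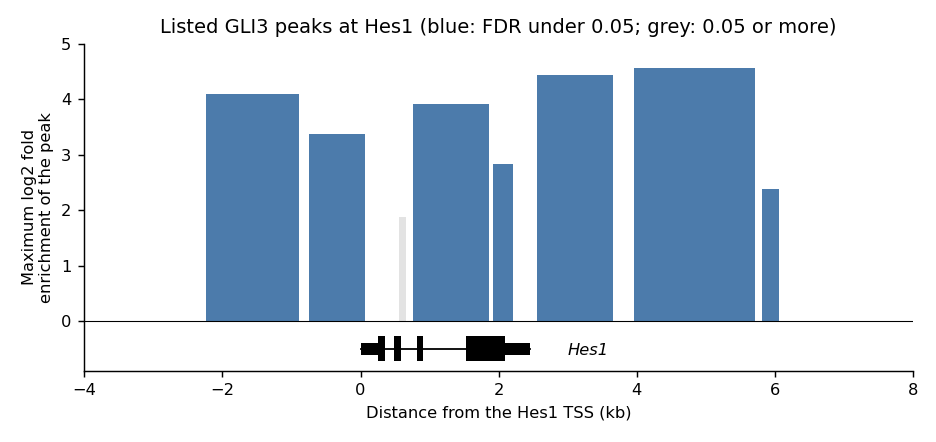
Listed GLI3 peaks around Hes1, as boxes from the start to the end of each peak in kb from the Hes1 TSS (x axis) with the maximum log2 fold enrichment as height (y axis), above the exons of the gene (thick for coding sequence, thin for untranslated). The 7 blue boxes have an FDR under 0.05 and cover 80.1% of 8300 bp, the grey one is the peak at 1.88, and the tallest 2 stand past the end of the gene.

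Hey1, another repressor of this class, had 3 binding regions, all with an FDR under 0.01. The strongest was distal. The region of rank 245 (chr3:8708850-8709499) lay 41821 bp upstream in intergenic sequence with a log2 fold enrichment of 4.01, or 16.1-fold, and a GC content of 51.7%. Rank 2982 (chr3:8717600-8718099), 50396 bp upstream, reached 2.80. At the promoter, rank 3800 (chr3:8667200-8667599) had its summit 36 bp before the TSS with 2.67 and a GC content of 80.2%. The upstream region thus exceeded the promoter by more than 1 on the log2 scale, with no replicate spread to set this against. No other protein-coding gene had its TSS within 100 kb of that of Hey1.

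The 101 bp around the summits of the 4 strongest regions that lay outside promoter windows are shown, since 3 of these 4 regions hold no GLI motif in their windows and the match of Hey1 lies outside the stretch printed. The capitals mark the RBPJ core at Jag1.
Hes1 71 (chr16:30070327-30070427, plus strand): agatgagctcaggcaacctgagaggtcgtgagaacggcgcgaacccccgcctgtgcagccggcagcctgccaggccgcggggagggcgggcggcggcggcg
Hes1 94 (chr16:30068547-30068647, plus strand): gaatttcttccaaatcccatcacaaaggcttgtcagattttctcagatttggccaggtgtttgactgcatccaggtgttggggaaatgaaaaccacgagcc
Hey1 245 (chr3:8709027-8709127, plus strand): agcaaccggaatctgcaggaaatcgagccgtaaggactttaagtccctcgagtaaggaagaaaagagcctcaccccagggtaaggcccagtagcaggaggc
Jag1 368 (chr2:137087872-137087972, plus strand): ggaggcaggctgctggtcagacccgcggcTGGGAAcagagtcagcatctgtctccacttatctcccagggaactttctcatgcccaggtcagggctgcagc

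These stretches differ in composition. The Hes1 stretch of rank 71 holds 13 CpG in 101 bp with a GC content of 75.2%, whereas that of rank 94, its neighbour, holds 1 with 45.5%. The Hey1 stretch holds 4 and the Jag1 stretch 2.

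Heyl and Hey2, the remaining targets, had little binding. Heyl had 1 binding region of rank 5831 (chr4:123239600-123239899), in an intron 6221 bp past the TSS with 2.44 and an FDR of 0.020787. Its listed peak at the TSS, 71 bp past it in the 5′ untranslated region, reached 2.24 with an FDR of 0.132755. Hey2 had 3 listed peaks and no binding region. Those at its own promoter, 361 bp before and 389 bp after the TSS, reached 2.06 and 1.82 with FDRs of 0.438195 and 1. The highest, at 2.23, lay 16 bp from the TSS of Ncoa7. With an FDR over 0.05 such peaks are not detected at this threshold, which does not show that GLI3 is absent there.

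Among the ligands, Jag1 stood highest. Jag1 is the Jagged ligand of limb mesenchyme and other tissues, and it had 3 binding regions, all with an FDR under 0.01. The region of rank 368 (chr2:137087600-137088399) lay in a Jag1 intron 28722 bp past the TSS with a log2 fold enrichment of 3.84, or 14.3-fold. At the promoter, rank 2459 (chr2:137116750-137117099) peaked 378 bp before the TSS with 2.90 and rank 3784 (chr2:137117500-137117799) 998 bp before it with 2.67. As at Hey1 and Hes1, the strongest region was not at the promoter, and no other protein-coding gene had its TSS within 100 kb.

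Some regions near Jag2 and Dll1 were nearer to other genes. Jag2, a ligand of the ectodermal ridge at the limb tip, had 3 binding regions and 5 other protein-coding genes within 100 kb. Its highest, rank 2080 (chr12:112941700-112942099) with 2.99, lay at the start of Nudt14, 12231 bp from the Jag2 TSS, and rank 7160 with 2.32 lay at the start of Brf1. The region in Jag2 itself was rank 4847 (chr12:112928000-112928349), in an intron 1754 bp past the TSS with 2.53 and an FDR of 0.007055. Dll1, a Delta ligand, had 2 binding regions and 1 other protein-coding gene within 100 kb, and the nearest protein-coding TSS was that of Fam120b for both. They reached 2.50 (rank 5167) and 2.33 (rank 7007), 64711 and 20216 bp upstream of Dll1. No listed peak lay at the promoter of Jag2 or of Dll1.

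The receptors also differed from each other. Notch2 had 3 binding regions and no other protein-coding TSS within 100 kb of its own. Rank 1990 (chr3:98013350-98013699) stood at its promoter, 21 bp before the TSS, with 3.02 and a GC content of 73.5%. Rank 1080 (chr3:98101500-98101749) in an intron 88104 bp past the TSS was the higher with 3.32, although the TSS of Adam30 was nearer, at 59018 bp. A further intronic region, rank 6392, reached 2.39. At Notch1 the 3 binding regions were all near the threshold, between 2.38 and 2.44 with FDRs of 0.020787 and 0.037408. Those of rank 5763 and 6494 lay in an intron, 1250 and 2930 bp past the TSS, and that of rank 6515 lay 57890 bp from the Notch1 TSS but 716 bp from that of Sec16a. A listed peak 200 bp before the Notch1 TSS reached 4.59-fold and missed the threshold with an FDR of 0.132966.

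Lfng, whose enzyme adds a sugar to Notch receptors and so changes which ligands they answer, had 3 listed peaks and no binding region. They were also the listed regions nearest to the limit of 100 kb, at 95137, 97267 and 98448 bp, with 2.19, 2.13 and 2.13, and the genes of their nearest TSS were Iqce, Brat1 and Chst12. Just outside the limit were peaks at 100416 bp from Hey1 (2.39), 100479 bp from Jag2 (2.23) and 101823 bp from Lfng (2.17). Of these only the Hey1 peak had an FDR under 0.05.

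**Figure D3:**
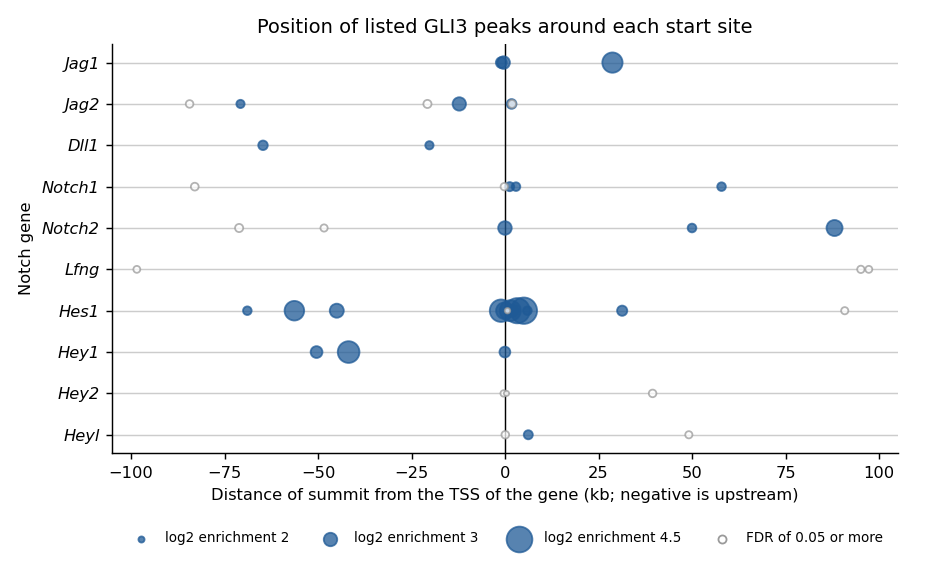
Distance of each listed summit from the TSS of its Notch gene in kb (x axis, negative is upstream in the direction of transcription) for the 10 genes (y axis). The area of a filled point grows with the log2 fold enrichment, and open points have an FDR of 0.05 or more. The Hes1 points crowd around 0 and the strongest Hey1 and Jag1 points stand 41.8 kb upstream and 28.7 kb downstream.

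Across roles, the 4 targets held 15 of the 29 binding regions with a median log2 fold enrichment of 3.08, the 3 ligands held 8 with 2.60 and the 2 receptors held 6 with 2.42. Of the 15 target regions, 11 belong to Hes1. The nearest protein-coding TSS was that of a Notch gene for 23 of the 29 regions (79.3%), and those of the others were Nudt14, Brf1, Fam120b (for both Dll1 regions), Sec16a and Adam30.

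Promoter and distal sites were both bound. A promoter window of any protein-coding gene was touched by 11 of 29 regions (37.9%, 22.7 to 56.0), against 52.6% of all binding regions. Without Hes1 the count was 8 of 18 (44.4%, 24.6 to 66.3), and over listed peaks of any FDR it was 22 of 46 (47.8%) against 48.1% of the list. The 11 promoter regions had a median log2 fold enrichment of 2.90 and the 18 distal regions 2.69, and over the whole list these medians were 2.70 and 2.69. Without Hes1 they were 2.67 and 2.52. Median GC content was 68.5% at the promoter regions and 56.2% at the distal ones, against 65.7% and 50.3% over the whole list. The part of GC content in the enrichment was not tested. By sequence, 15 of 29 regions were CpG-rich (51.7%, 34.4 to 68.6), meaning that at least 50% of the bases in the window were G or C and CpG occurred at more than 0.6 of its expected frequency, against 50.6% of all binding regions.

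**Figure D4:**
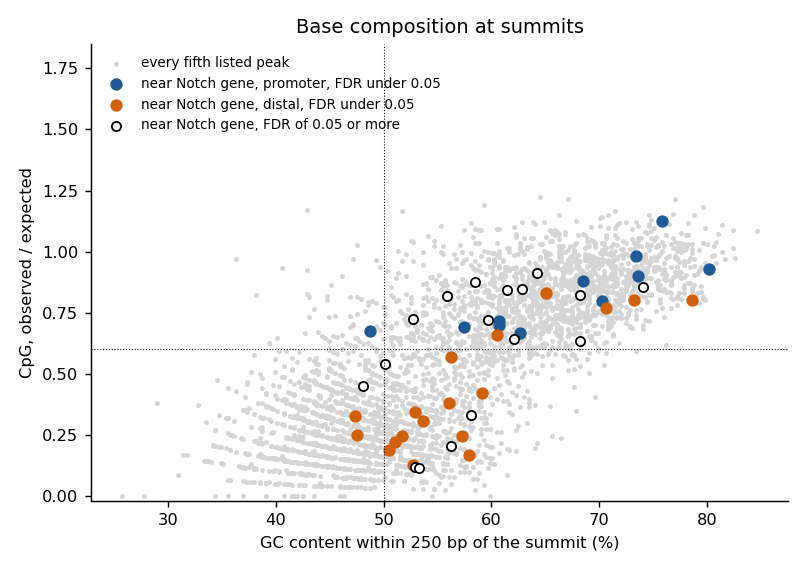
GC content in percent (x axis) and ratio of observed to expected CpG (y axis) of the window of 250 bp to each side of a summit, for an evenly spaced sample of all listed peaks (grey) and for the peaks near Notch genes. Blue points are promoter regions and orange points distal regions with an FDR under 0.05, open circles have a higher FDR, and dotted lines mark 50% and 0.6. Of the 29 filled points, 15 lie in the CpG-rich quadrant at the upper right, most of the blue points among them.

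Distances between binding regions were counted too. Of the 29 summits, 13 (44.8%) lay within 10 kb of another binding region, against 31.8% of all 7282. Hes1 gave 7 of the 13, and without it the count was 6 of 18 (33.3%). The median length of the 29 regions was 350 bp, against 400 bp over the list, and that of the Hes1 regions 800 bp.

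**Figure D5:**
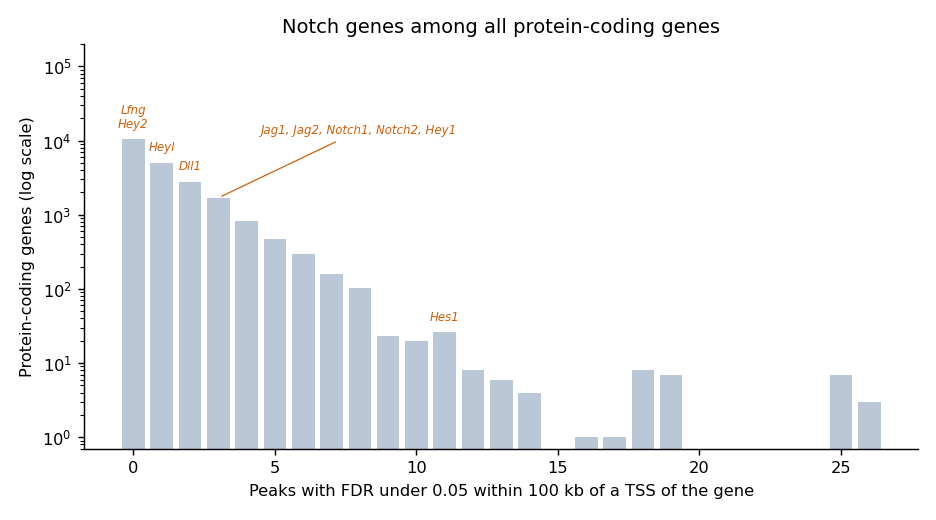
Number of protein-coding genes (y axis, log scale) by the number of GLI3 binding regions within 100 kb of their TSSs (x axis), over 21938 genes. Orange names mark the 10 Notch genes, of which 9 have 3 or fewer and Hes1 has 11.

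The rest of the pathway was counted for a list of 36 further genes that make, cut, modify or read out Notch receptors. All 36 had a listed peak within 100 kb and 29 had a binding region, against 52.2% of all protein-coding genes. A binding region touched the promoter of 11 of the 36, against 17.2% of all. Those with high-ranked promoter regions included Spen (3.80), which encodes a corepressor that works with RBPJ, Maml3 (3.26), a coactivator of the Notch complex, Rbpj itself (3.25), Itch (3.11), a ubiquitin ligase, Adam17 (3.08), a protease that cuts the receptor, the receptor gene Notch3 (3.07) and Pofut1 (2.91), whose enzyme adds fucose to Notch receptors. Among these 7 genes, the Adam17 and Notch3 regions held a GLI motif in their windows and the highest regions of the other 5 did not. Rbpj had a further promoter region with 2.81. The nearest protein-coding TSS to the Pofut1 region was that of another gene. Genes with many neighbours share peaks with them, and neither gene length nor expression was matched in these counts.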

How the data were processed

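GLI3-FLAG ChIP-seq of E10.5 mouse forelimb buds gave 3 libraries (2 ChIP replicates, 1 input), from which 1 peak list was used. Limb buds were dissociated with Liberase before fixation and libraries were amplified with 15 PCR cycles. The submitters' processing notes name Bowtie2 2.2.5 and mm10, and peaks were called with CisGenome according to the study's methods. The list is attached to ChIP replicate 1 and does not itself state that both replicates were combined. The study's methods state a minimum sequencing depth for all samples, but the list holds no read totals, so the exact depth behind each value was not known.

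The deposited list gives an FDR for each peak, a q-value computed by the authors' caller, and "FDR under 0.05" follows the study. The largest log2 fold enrichment over input in a peak is also the authors' value. The T statistic, a score with no fixed range, was used by the authors to rank peaks. The deposited −log10 of the smallest Poisson p-value stops at 100. Start, end and summit are in bp as deposited, lengths are multiples of 50 bp, and since the first base may be numbered 0 or 1, distances may be off by 1 bp.

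TSSs, promoter windows and locations came from GENCODE M21 (basic transcripts), and sequences from the GRCm38.p6 genome (RefSeq), with 0 peak ends beyond a chromosome. Shares over the list left out 5 listed peaks on unplaced sequence. Counts, medians and 95% Wilson intervals were computed with Python 3.11.15, pandas 2.3.3, scipy 1.17.1 and pysam 0.24.0. The counting steps were tested on simulated peaks. The genes named are the 10 Notch genes, the gene of the nearest protein-coding TSS for each of their binding regions and, of 36 other pathway genes, the 8 with the highest-ranked promoter regions, of which 1 is not reported here, and genes beside unbound listed peaks (Ncoa7, Iqce, Brat1, Chst12) and 4632428C04Rik were added after their values were seen. The 10 genes and the list of 36 were chosen with earlier results of these data known. Alternatives changed the FDR, the distance, the annotation, the promoter window, the motifs and their window, and the CpG criteria.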

Additional observations from a re-analysis of the deposited data

How the results depend on the processing

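Counts near Notch genes followed the FDR. The 29 binding regions became 46 with every listed peak and 19 at an FDR under 0.01, and the 8 genes with a region became 5 at that FDR, when Dll1, Notch1 and Heyl had none. Without Hes1, an alternative chosen after seeing the data, 18 regions remained. Distances of 50 kb and 200 kb gave 22 and 43 regions, and 31 were counted with the comprehensive annotation, also chosen after seeing the data. The median log2 fold enrichment of 2.80 fell to 2.39 with every listed peak. The share with a GLI motif of 20.7% was 0% for the exact consensus and otherwise ranged from 10.3% to 31.6%. The lowest was within 100 bp of the summit, where 11.6% of all binding regions had the motif. The highest was at an FDR under 0.01. Over whole peaks the share was 24.1%, against 19.9% of all binding regions. The share with an RBPJ motif of 37.9% was 20.7% for 8 letters and 10.3% within 100 bp of the summit. Over whole peaks it was 44.8%, against 31.8% of all binding regions. For these summary results, 31 alternatives stayed within 1.5 times a count or within the 95% interval of a share or median, and 8 moved. These intervals are wide, so that a GLI share of 10.3% and the median of 2.60 without Hes1, which is under the 2.69 of all binding regions, count among the 31. Per gene, 27 stayed and 13 moved, among them Hes1, with 18 regions within 200 kb. No paired analysis was possible because values per replicate are missing from the list, and for that reason neither replicate could be left out. Only a minimum depth is stated by the study, and how far depth limits the peaks with an FDR over 0.05 was not tested here.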
